A study of Mus musculus with 7 samples.

Results

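The genes described here are 10 components and targets of the canonical Wnt pathway that mark or regulate progenitor-like cells in many epithelia: the ligands Wnt7a and Wnt9a, the R-spondin receptors Lgr5 and Lgr6, the ubiquitin ligases Rnf43 and Znrf3, the feedback inhibitor Axin2, the transducer Ctnnb1 (beta-catenin) and the nuclear factors Lef1 and Tcf7. They are a list of named genes, with no threshold on their values, and all 10 were found among the 48709 genes of each deposited table. The cells were supporting cells of the mouse cochlea, the non-sensory cells around the sensory hair cells. Whole cochleae were taken at postnatal day 1, kept as explants in medium with EGF and FGF, and exposed for 48 h to 1 of 3 conditions. The controls received the solvent DMSO (2 libraries). A second group received 10 µM GSK-343, an inhibitor of EZH2, the enzyme that places the repressive histone mark H3K27me3 (3 libraries). The last group received 200 nM TSA (trichostatin A), an inhibitor of histone deacetylases (2 libraries). The labels name no strain, no genotype and no transgene behind the GFP by which the supporting cells were sorted, and do not give the culture or animal of each replicate. The p-values therefore reflect only the spread between these libraries, which may be technical.

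In this pathway, secreted Wnt proteins bind Frizzled receptors with the co-receptors Lrp5 and Lrp6 and protect beta-catenin from the destruction complex of Axin, Apc and Gsk3. Beta-catenin then joins TCF/LEF proteins on DNA and switches on targets, several of which (Axin2, Lgr5, Rnf43, Znrf3, Lef1, Tcf7) feed back on the pathway. In the newborn cochlea, Lgr5 marks a subset of supporting cells that can divide and give rise to hair cells when Wnt signalling is raised.

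The total expected count ranged from 2724381 to 5974230 per library. The DMSO libraries stand apart in how they were quantified: the median gap between a gene's length and its effective length was 49 bases in both, but 208.2 to 212.7 bases in each treated library. Any difference from DMSO is therefore also a difference between read layouts, and treatment and layout cannot be told apart there. GSK-343 and TSA share a layout. Levels per length are in TPM, RSEM's length-corrected transcript level. Counts of 1 gene are compared between libraries as CPM, their share of the library's counts after scaling by TMM factors. Differences are log2 fold changes ± SE from edgeR's quasi-likelihood test on all 14907 genes that passed the low-count filter, with Benjamini-Hochberg adjusted p and a threshold of 0.05. All 10 genes passed that filter.

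The labelled cell type was checked against marker genes. All 15 supporting cell markers, Sox2 and Prox1 among them, were above 1 TPM in every library. Their summed level was 4167 and 5778 TPM in the controls, 21001 to 32474 TPM under GSK-343 and 8404 and 10887 TPM under TSA. S100a1 alone gave 767 and 1204 TPM of the sum in DMSO, 15057 to 27765 TPM with GSK-343 and 5628 and 6686 TPM with TSA. The median of the 15 markers was 248 and 313 TPM in DMSO, 163 to 239 TPM with GSK-343 and 126 and 171 TPM with TSA. Set against GSK-343, TSA had 6 of these 15 markers lower and 0 higher, where 5.68% and 5.04% of all genes tested were. Relative to DMSO, 9 fell and 1 rose with TSA, where 16.1% and 13.1% of all genes did. With GSK-343, 5 fell and 4 rose, where 21.5% and 18.1% of all genes did. The 14 hair cell markers summed to 217 and 222 TPM in DMSO. Their sum was 415 to 976 TPM with GSK-343, and it reached 2198 and 576 TPM with TSA. Of these 14 hair cell markers, 8 rose and 0 fell with TSA relative to DMSO, where 13.1% and 16.1% of all genes did. With GSK-343, 7 rose and 1 fell, where 18.1% and 21.5% did. Between the inhibitors 0 passed, where 10.7% of all genes did in either direction. The 12 neuronal markers gave 124 and 190 TPM in the controls, 204 to 462 TPM under GSK-343 and 531 and 754 TPM under TSA. Isl1 alone gave 97.2 and 138 TPM of this sum in DMSO, 148 to 391 TPM with GSK-343 and 146 and 233 TPM with TSA. Schwann cell markers reached 348 TPM and mesenchymal markers 259 TPM at most. Of the 348 TPM, in GSK-343 replicate 1, Erbb3 gave 205 TPM and Egr2 113 TPM. Endothelial markers stayed at or below 5.31 TPM and markers of blood and macrophages at or below 16.6 TPM. In bulk samples, fewer cells of a type and less RNA per cell cannot be told apart, and the part of these shifts in the results below was not tested.

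Wnt7a, Ctnnb1 and Lgr5 were the most abundant of the 10 genes in all 7 libraries. In DMSO, Wnt7a stood at 216 and 184 TPM, Ctnnb1 at 161 and 174 TPM and Lgr5 at 119 and 117 TPM, and these ranges do not overlap. The rank of Wnt7a in DMSO rests on the short length given to it there (below): in counts it had 976 and 1098, fewer than Lgr5 (1868 and 1526) and Ctnnb1 (2021 and 2226). Znrf3 (34.3 and 43.2 TPM), Lgr6 (37.6 and 22.8 TPM) and Rnf43 (21.8 and 31.2 TPM) followed. The range of Lgr6 overlaps those of the other two, and Znrf3 lies above Rnf43. Axin2 came next at 14.7 and 21.2 TPM. Lef1 (3.71 and 8.72 TPM) and Tcf7 (1.88 and 4.12 TPM) were low and overlap each other, and Wnt9a was close to absent at 0.31 and 0.08 TPM. Lgr5 ranked just behind the other two in every library. With GSK-343, Wnt7a led at 657 to 1072 TPM. With TSA, Ctnnb1 led at 514 and 663 TPM, ahead of Wnt7a at 211 and 77.6 TPM. Lef1 was last or next to last in all 5 treated libraries, below Tcf7 in each.

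**Figure D1:**
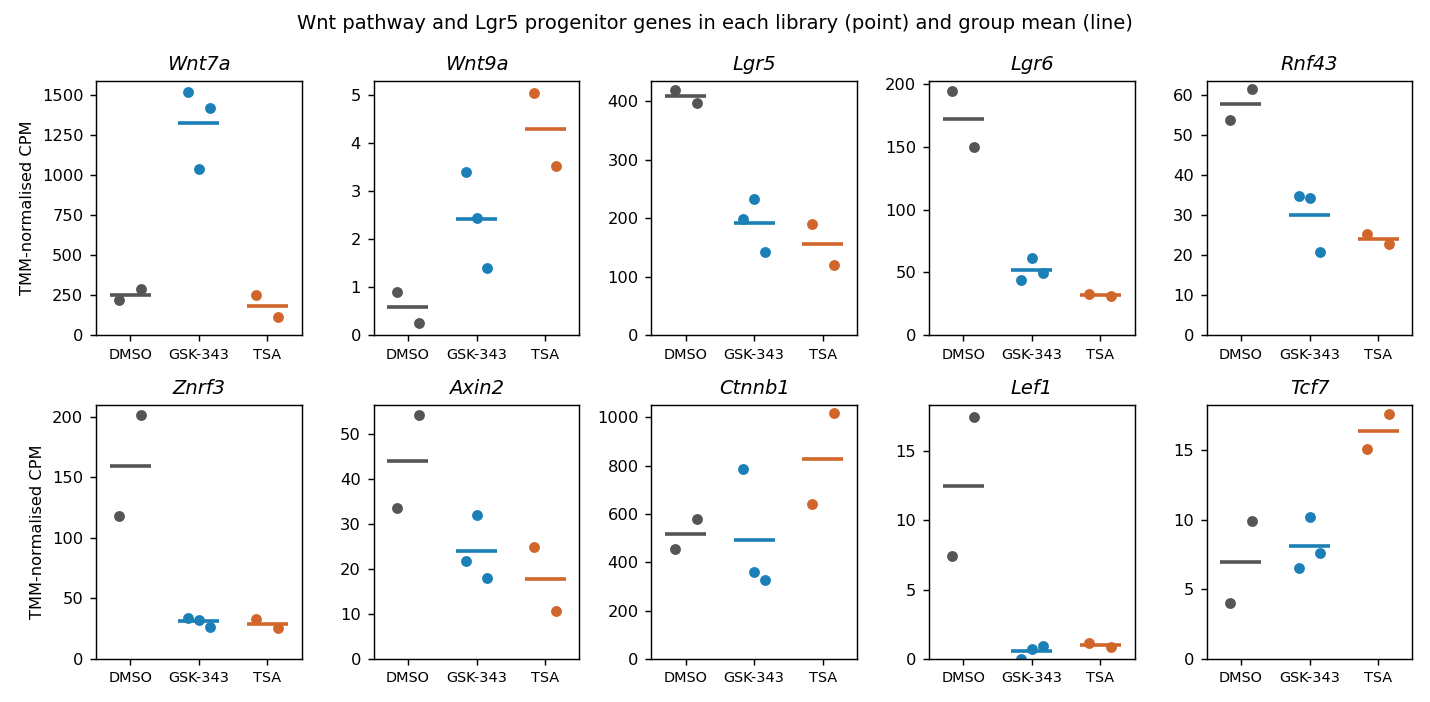
TMM-normalised CPM of the 10 genes in each library (points) with the group mean (line), on linear axes that start at 0 and differ between panels. Wnt7a is high in the 3 GSK-343 libraries alone, from 1037 to 1515 CPM, while Lgr5, Lgr6, Rnf43, Znrf3, Axin2 and Lef1 are highest in the 2 DMSO libraries.

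Wnt7a was the gene that set the inhibitors apart. It encodes a secreted Wnt that is made in the cochlear epithelium (ENSMUSG00000030093.7, GRCm38 chr6:91363981-91411363, minus strand). Its level was 219 and 286 CPM in DMSO, 1515, 1037 and 1418 CPM with GSK-343, and 250 and 110 CPM with TSA. The GSK-343 libraries lie above all others, and the TSA and DMSO libraries overlap. Between TSA and GSK-343, within 1 layout, Wnt7a fell with TSA by 2.87 on the log2 scale (SE 0.40, adjusted p = 0.00176). Relative to DMSO, Wnt7a rose with GSK-343 by 2.39 ± 0.39 (adjusted p = 0.000364), a fitted 5.24-fold increase. The difference of TSA from DMSO was −0.49 ± 0.39 (95% interval −1.32 to 0.34, adjusted p = 0.369), and it passed with GC content and length trends removed (−1.03, adjusted p = 0.048). The rise with GSK-343 passed the threshold under all 20 alternatives, between 1.76 and 2.85. The difference between the inhibitors passed under 19 of 20, and the exception was limma on unfiltered TPM (−2.70, adjusted p = 0.0771).

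The quantification of Wnt7a itself differed between layouts. RSEM's mean transcript length for Wnt7a was 1194 and 1612 bases in the controls, and treated libraries had 2969 to 3172 bases. GENCODE M21 lists a coding transcript of 3172 bases and 2 short processed transcripts of 297 and 293 bases for Wnt7a. TPM divides by this length, so the DMSO levels of Wnt7a per length are raised relative to its counts. On the TPM scale the GSK-343 libraries still do not overlap with DMSO (657 to 1072 against 184 and 216 TPM). Lengths also varied for other members, and so bear on their TPM. Znrf3 had 3930 and 4731 bases in DMSO and 5084 to 5916 in treated libraries. Rnf43 had 2839 and 2037 bases in DMSO and 2631 to 3555 in treated libraries. Axin2 had 4042 bases in GSK-343 replicate 1 and 2142 to 2621 in the others.

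The promoter of Wnt7a is rich in CpG dinucleotides, a feature of many regions at which Polycomb complexes act in mammals. The sequences are shown because Wnt7a rose with GSK-343 while Lgr6 and Lef1 fell, so that the windows of genes that went opposite ways can be compared. They come from RefSeq on GRCm38.p6, are written 5′ to 3′ on the gene's strand, and have each CG in capitals. The windows are Wnt7a at chr6:91411364-91411603 (minus strand), Lgr6 at chr1:135105277-135105526 (minus strand) and Lef1 at chr3:131110047-131110296 (plus strand).
Wnt7a: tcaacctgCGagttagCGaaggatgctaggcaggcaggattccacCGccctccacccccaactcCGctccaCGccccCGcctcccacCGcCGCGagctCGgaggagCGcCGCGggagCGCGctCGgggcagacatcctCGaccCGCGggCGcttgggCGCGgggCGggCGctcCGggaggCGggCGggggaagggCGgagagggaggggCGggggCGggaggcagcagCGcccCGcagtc
Lgr6: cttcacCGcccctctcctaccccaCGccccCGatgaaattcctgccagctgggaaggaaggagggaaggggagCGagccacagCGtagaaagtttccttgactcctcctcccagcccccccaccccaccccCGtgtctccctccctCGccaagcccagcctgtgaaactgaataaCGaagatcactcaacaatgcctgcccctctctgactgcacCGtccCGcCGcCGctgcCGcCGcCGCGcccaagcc
Lef1: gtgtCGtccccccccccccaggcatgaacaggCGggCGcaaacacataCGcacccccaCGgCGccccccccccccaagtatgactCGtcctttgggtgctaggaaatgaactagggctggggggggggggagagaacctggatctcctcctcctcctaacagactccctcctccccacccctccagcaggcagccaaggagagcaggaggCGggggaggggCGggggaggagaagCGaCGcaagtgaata
The 250 bases before the start held 34 CpG in Wnt7a, 16 in Lgr6 and 11 in the most upstream of 4 Lef1 windows. The 10 bases of the Wnt7a window next to the start lie in an annotated exon and are not printed. The median over 32851 such windows was 6, and 17.9% held at least 20. Among the 8 genes with a window, the most upstream one held 48 CpG in Wnt9a, 37 in Tcf7, 35 in Ctnnb1, 24 in Axin2 and 8 in Rnf43. Of the genes called against DMSO, Wnt7a rose (34 CpG), and Lgr6 (16), Lef1 (11) and Rnf43 (8, with TSA alone) fell. Axin2, Ctnnb1, Tcf7 and Wnt9a, with 24 to 48, were not called. Lgr5 and Znrf3, which fell, had no window. All 250 bases of this Rnf43 window lie in an annotated exon, and the Lef1 start was not found in GENCODE transcripts. A link between CpG content and direction was not tested.

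A search for the TCF/LEF motif CTTTG followed by any 2 letters out of adenine and thymine, which gives 4 motifs of 7 bases, on both strands found 1 match among all windows of these 8 genes. It is CTTTGTA on the minus strand of an internal Lef1 window, at −147 from the most downstream of the 4 Lef1 starts. The motif is in capitals, as it reads on the plus strand at chr3:131156137-131156163.
Lef1 internal window: aacctcagaaTACAAAGtaggattgca
Of all windows, 14.8% held at least 1 of these 4 motifs. A match is a run of letters and not a shown binding site, and the absence of a match says only that these letters are not in the window.

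Wnt9a, the other ligand of the group, was near the detection limit (ENSMUSG00000000126.11, chr11:59306928-59333552, plus strand). It received 4 and 1 counts in DMSO, 12, 10 and 6 with GSK-343, and 18 and 12 with TSA. Every TSA library was above every GSK-343 library in CPM (5.04 and 3.52 against 1.39 to 3.40), and every GSK-343 library above DMSO (0.898 and 0.261). None of the 3 differences of Wnt9a passed: 2.79 ± 1.22 for TSA against DMSO (adjusted p = 0.0962), 1.97 ± 1.14 for GSK-343 against DMSO (adjusted p = 0.186), and 0.83 ± 0.98 between the inhibitors (adjusted p = 0.621). For TSA against DMSO, Wnt9a passed with total count scaling (3.50, adjusted p = 0.0376, which is 2.85 relative to the median of all genes) and in the 3 limma fits on TPM (adjusted p from 0.0167 to 0.049). At such counts the fitted values also depend on the prior count.

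Among all 19 Wnt ligands, Wnt7a held most of the TPM in every library. Its share was 81.1% and 86.0% in the controls, 93.7% to 95.7% under GSK-343, and 78.4% and 66.5% under TSA. Counted in reads rather than per length, the Wnt7a share in DMSO was 60.7% and 72.4%. Wnt5a, a ligand best known for beta-catenin-independent signalling, held 11.9% and 8.94% of ligand TPM in DMSO and fell with both inhibitors (−1.98 ± 0.46, adjusted p = 0.00639, with TSA and −1.92 ± 0.40, adjusted p = 0.00204, with GSK-343). The TSA call of Wnt5a was lost in the limma fits on TPM (adjusted p from 0.0584 to 0.0714). Wnt7b, the closest relative of Wnt7a, held 11.5% and 12.3% with TSA. Wnt7b rose with GSK-343 relative to DMSO (1.11 ± 0.42, adjusted p = 0.0456), from 31.0 and 22.9 CPM to 54.4, 48.2 and 71.7 CPM. That call of Wnt7b held under 10 of 20 alternatives and was lost, among others, without DMSO replicate 1 or 2 or GSK-343 replicate 2 or 3 (adjusted p from 0.0563 to 0.202) and with GC content and length trends removed (0.42, adjusted p = 0.385).

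**Figure D2:**
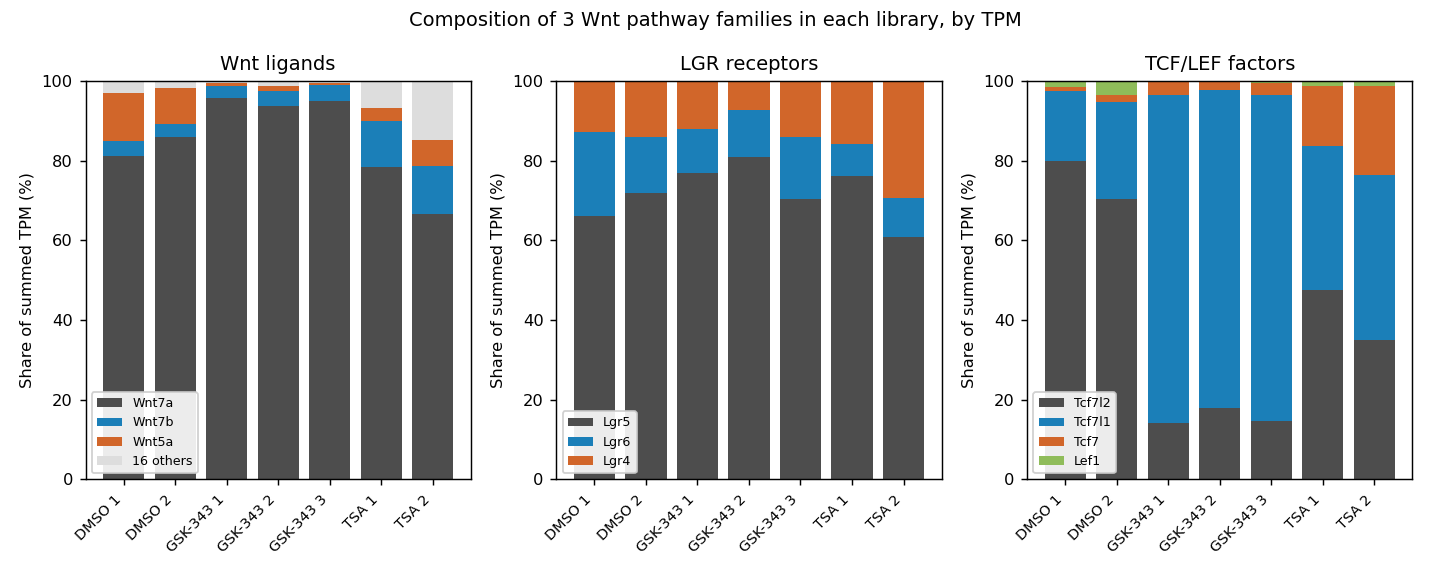
Share of the summed TPM (%, stacked to 100) that each gene holds within the Wnt ligands, the LGR receptors and the TCF/LEF factors, 1 bar per library. Tcf7l2 holds 80.0% and 70.5% of the TCF/LEF sum in DMSO, whereas Tcf7l1 holds 79.7% to 82.5% with GSK-343 and Tcf7 reaches 15.2% and 22.3% with TSA.

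Lgr5 and Lgr6, the receptors that bind R-spondins and thereby hold Rnf43 and Znrf3 off the Frizzled receptors, were lower in both treated groups than in DMSO. Lgr5 (ENSMUSG00000020140.15, chr10:115450311-115587780, minus strand) stood at 420 and 398 CPM in DMSO, 199, 233 and 142 CPM with GSK-343, and 190 and 120 CPM with TSA. The DMSO libraries lie above all 5 treated ones, and the treated groups overlap. Lgr5 fell by 1.40 with TSA (SE 0.36, adjusted p = 0.0109) and by 1.09 with GSK-343 (SE 0.32, adjusted p = 0.0138). Between the inhibitors the difference was −0.30 ± 0.33, with a 95% interval of −1 to 0.40 (adjusted p = 0.589). Per length the picture of Lgr5 was weaker: 119 and 117 TPM in DMSO, 93.7, 115 and 57.3 TPM with GSK-343, and 119 and 63.4 TPM with TSA, where TSA overlaps with DMSO.

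The Lgr5 calls held with some ways of scaling the libraries and not with others. Both passed with DESeq2 size factors (adjusted p = 0.0121 with TSA and 0.0105 with GSK-343). They also passed with nuclear protein-coding genes alone (−1.44, adjusted p = 0.00988, with TSA and −1.17, adjusted p = 0.0105, with GSK-343). Scaling to total counts lost both. TMM centres the bulk of genes near 0, whereas scaling to total counts moves the median of all genes to 0.20 between the inhibitors and, relative to the controls, to 0.65 (TSA) and 0.42 (GSK-343). Lgr5 then stood at −0.67 with TSA (adjusted p = 0.186) and −0.62 with GSK-343 (adjusted p = 0.157), which is −1.32 and −1.04 relative to those medians. On log2(TPM + 1) with limma the differences were −0.43 and −0.46 (adjusted p = 0.464 and 0.401). The TSA call of Lgr5 was also lost without DMSO replicate 1 (−1.33, adjusted p = 0.0668) or TSA replicate 2 (−1.06, adjusted p = 0.136). Lgr5 no longer passed with GSK-343 when DMSO replicate 1 or 2 (adjusted p = 0.0897 and 0.064) or GSK-343 replicate 3 (adjusted p = 0.0617) was left out and with GC content and length trends removed (−0.64, adjusted p = 0.131).

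Lgr6 (ENSMUSG00000042793.13, chr1:134983301-135105276, minus strand) fell further than Lgr5 in the point estimates; this difference between the genes was not tested. Its level was 194 and 150 CPM in DMSO, 44.2, 61.8 and 49.3 CPM with GSK-343, and 33.0 and 31.4 CPM with TSA, and no group overlaps another. Lgr6 fell by 2.42 with TSA (SE 0.39, adjusted p = 0.000574) and by 1.73 with GSK-343 (SE 0.33, adjusted p = 0.00104). The step from GSK-343 to TSA, −0.68 ± 0.35 (95% interval −1.42 to 0.05), did not pass (adjusted p = 0.213). In TPM, Lgr6 was at 37.6 and 22.8 in the controls, 12.5 to 16.9 under GSK-343, and 12.8 and 10.1 under TSA. The fall with TSA passed under all 20 alternatives, and that with GSK-343 under 17, the exceptions being the 3 limma fits on TPM (adjusted p from 0.0612 to 0.0724). Within the LGR family, Lgr5 held 60.8% to 80.8% of the TPM in all 7 libraries. Lgr4, the broadly expressed other receptor, fell with GSK-343 (−1.38 ± 0.35, adjusted p = 0.00633), except with GC content and length trends removed (−0.47, adjusted p = 0.249) and in the limma fits on TPM. R-spondins themselves were scarce: Rspo1 did not exceed 4.54 TPM and Rspo2 did not exceed 5.5 TPM in any library.

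Znrf3 and Rnf43 are membrane ubiquitin ligases that remove Frizzled receptors from the cell surface and so dampen Wnt signalling. Znrf3 (ENSMUSG00000041961.14, chr11:5276324-5444847, minus strand) stood at 118 and 201 CPM in DMSO, 34.0, 31.9 and 26.6 CPM with GSK-343, and 33.0 and 25.2 CPM with TSA. The 5 treated libraries lie within a narrow band far below DMSO. Znrf3 fell by 2.45 with TSA (SE 0.42, adjusted p = 0.000897) and by 2.37 with GSK-343 (SE 0.36, adjusted p = 0.000217), and both calls held under all 20 alternatives. Between the inhibitors the Znrf3 difference was −0.08 ± 0.37, with a 95% interval of −0.87 to 0.71 (adjusted p = 0.927). In TPM, Znrf3 was at 34.3 and 43.2 in the controls, and treated libraries had 8.29 to 15.4.

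Rnf43 (ENSMUSG00000034177.15, chr11:87662722-87735539, plus strand) stood at 53.9 and 61.5 CPM in DMSO, 34.9, 34.3 and 20.8 CPM with GSK-343, and 25.2 and 22.9 CPM with TSA. Both treated groups lie below DMSO. With TSA, Rnf43 fell by 1.26 (SE 0.44, adjusted p = 0.0428), a call close to the threshold that 12 of 20 alternatives lost, among them total count scaling (−0.55, adjusted p = 0.36), all limma fits and the removal of either DMSO or either TSA library or of GSK-343 replicate 2 or 3 (adjusted p from 0.0542 to 0.234). The difference of GSK-343 from DMSO was −0.94 ± 0.39 (adjusted p = 0.0661). It passed with the filter of 50 counts (adjusted p = 0.0365), with nuclear protein-coding genes alone (adjusted p = 0.0481) and with GC content and length trends removed (−1.70, adjusted p = 0.00384). In TPM, Rnf43 ranged from 21.8 to 31.2 in the controls, which overlap with the 10.6 to 28.1 of the treated libraries.

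Axin2, a scaffold of the destruction complex and the most widely used readout of beta-catenin signalling, did not pass in any comparison (ENSMUSG00000000142.15, chr11:108920349-108950783, plus strand). Its level was 33.5 and 54.2 CPM in DMSO, 21.8, 31.9 and 18.0 CPM with GSK-343, and 24.9 and 10.6 CPM with TSA. Both treated groups lie below DMSO in CPM. The differences of Axin2 were −1.30 ± 0.54 for TSA (adjusted p = 0.0816) and −0.87 ± 0.47 for GSK-343 (adjusted p = 0.158). With GC content and length trends removed they passed, at −1.88 (adjusted p = 0.0118) and −1.82 (adjusted p = 0.00568). In TPM the 3 groups of Axin2 overlap, with 14.7 and 21.2 in DMSO, 11.1, 26.8 and 15.3 with GSK-343, and 29.2 and 11.2 with TSA. Between the inhibitors the difference was −0.43 ± 0.49 (adjusted p = 0.612).

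Ctnnb1, which encodes beta-catenin and is regulated mainly through protein stability, had its highest values with TSA (ENSMUSG00000006932.16, chr9:120929216-120960507, plus strand). Ctnnb1 stood at 454 and 580 CPM in DMSO, 787, 360 and 325 CPM with GSK-343, and 640 and 1017 CPM with TSA. The TSA libraries lie above DMSO but overlap with GSK-343, whose replicate 1 stands apart from the other two. None of its differences passed: 0.76 ± 0.38 between TSA and GSK-343 (adjusted p = 0.209), 0.68 ± 0.42 for TSA against DMSO (adjusted p = 0.242), and −0.08 ± 0.38 for GSK-343 against DMSO (adjusted p = 0.892). Without GSK-343 replicate 1, Ctnnb1 was higher with TSA than with GSK-343 by 1.27 (adjusted p = 0.0164). With total count scaling, Ctnnb1 passed for TSA against DMSO (1.37, adjusted p = 0.0258), which is 0.72 relative to the median of all genes. In TPM both TSA libraries of Ctnnb1 (514 and 663) lie above the other 5 (161 to 483).

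Lef1, the TCF/LEF factor that is itself a Wnt target, was nearly lost from the treated libraries (ENSMUSG00000027985.14, chr3:131110471-131224356, plus strand). It received 33 and 67 counts in DMSO, 0, 3 and 4 with GSK-343, and 4 and 3 with TSA. That is 7.41 and 17.5 CPM in DMSO against 0 to 0.925 CPM with GSK-343 and 1.12 and 0.88 CPM with TSA. Lef1 fell with GSK-343 (−4.37 ± 1.05, adjusted p = 0.00446) and with TSA (−3.59 ± 1.18, adjusted p = 0.0325). Fitted values at so few counts depend on the prior count, and 3 counts correspond to 0.694 to 0.88 CPM in the treated libraries, so no fold between the inhibitors is given. The TSA call was lost with 7 of 19 alternatives, among them total count scaling (−2.89, adjusted p = 0.0778) and the removal of DMSO replicate 2 (−2.83, adjusted p = 0.208), TSA replicate 1 (−3.72, adjusted p = 0.166) or TSA replicate 2 (−3.39, adjusted p = 0.215). The GSK-343 call was lost without DMSO replicate 2 (−3.61, adjusted p = 0.0675).

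Tcf7, the gene for TCF1, did not follow Lef1 (ENSMUSG00000000782.15, chr11:52252371-52283014, minus strand). Tcf7 stood at 4.04 and 9.91 CPM in DMSO, 6.52, 10.2 and 7.63 CPM with GSK-343, and 15.1 and 17.6 CPM with TSA. Both TSA libraries lie above the other 5, and DMSO and GSK-343 overlap. The differences did not pass, with 1.23 ± 0.72 for TSA against DMSO (adjusted p = 0.211), 1.01 ± 0.63 between TSA and GSK-343 (adjusted p = 0.322) and 0.23 ± 0.66 for GSK-343 against DMSO (adjusted p = 0.812). In TPM, where Tcf7 was at 1.88 and 4.12 in the controls, 5.63 to 8 under GSK-343, and 16.7 and 16.2 under TSA, limma called the difference of TSA from DMSO (2.19 on the log2(TPM + 1) scale, adjusted p = 0.013). With total count scaling it also passed (1.93, adjusted p = 0.0488), which is 1.28 relative to the median of all genes.

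The make-up of the TCF/LEF family differed between the groups. Tcf7l2 held 80.0% and 70.5% of the family's TPM in the controls, 14.1% to 17.9% under GSK-343, and 47.4% and 35.1% under TSA. Tcf7l1, best known as a repressor of Wnt targets, held 17.6% and 24.2% in the controls, 79.7% to 82.5% under GSK-343, and 36.2% and 41.4% under TSA. Its own level was 40.6 and 58.5 TPM in DMSO, 134 to 286 TPM with GSK-343, and 39.8 and 30.1 TPM with TSA. In counts Tcf7l1 fell with TSA relative to DMSO (−2.10 ± 0.42, adjusted p = 0.00244), though not in the limma fits on TPM (adjusted p from 0.386 to 0.398). Against DMSO, edgeR did not call Tcf7l1 higher with GSK-343, where Pygo2 was the only nuclear factor called higher. The shares also moved with Tcf7l2, which was at 185 and 171 TPM in DMSO and 22.95 to 64.5 TPM with GSK-343. Lef1 held 1.60% and 3.60% in the controls, and treated libraries had at most 1.22%. The share of Tcf7 was 0.812% and 1.70% in DMSO and 15.2% and 22.3% with TSA, within a family sum that was 232 and 242 TPM in DMSO and 110 and 72.8 TPM with TSA. In counts, Tcf7l2 fell with both inhibitors (−2.79 ± 0.41, adjusted p = 0.000309, with TSA and −2.43 ± 0.35, adjusted p = 0.000136, with GSK-343). Tcf7l1 fell with TSA relative to GSK-343 (−2.91 ± 0.41, adjusted p = 0.00186), from 129, 270 and 198 CPM to 31.9 and 21.1 CPM. Both calls of Tcf7l2 held under all 20 alternatives.

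**Figure D3:**
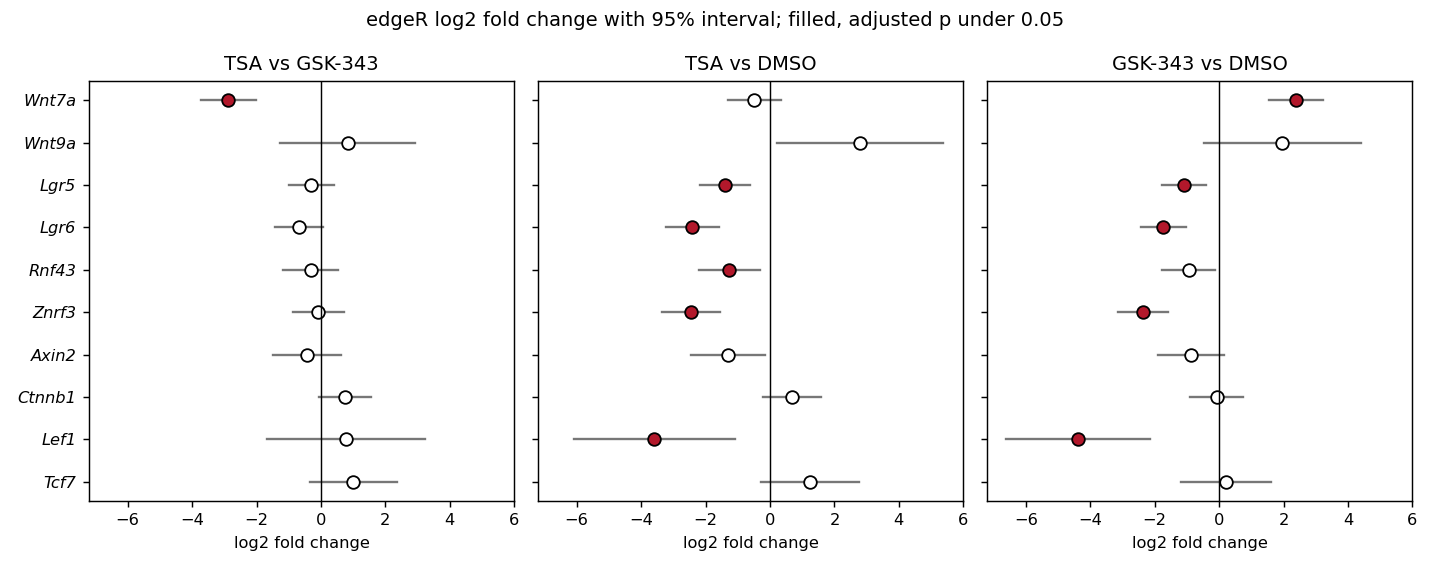
edgeR log2 fold change (points) with its 95% interval (lines) for the 10 genes in the 3 comparisons; filled points passed an adjusted p of 0.05. Wnt7a is the filled point between TSA and GSK-343, and Lgr5, Lgr6, Znrf3 and Lef1 are filled on the lower side in both comparisons with DMSO.

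Counted over the group, TSA set against GSK-343 had 1 of the 10 genes lower and 0 higher, while 10.7% of all genes tested passed in either direction (5.68% lower). The median difference of the 10 was −0.19 against 0.00 over all genes. In CPM, 2 of the 10 lay higher and 2 lower with no overlap between these groups, where 23.5% and 22.9% of all genes did (46.3% in all). Relative to DMSO, 5 fell with TSA and 0 rose, against 29.2% of all genes in either direction (16.1% lower, 13.1% higher), and the median was −1.28 against −0.05. With GSK-343, 4 fell and 1 rose, against 39.6% of all genes (21.5% lower, 18.1% higher), and the median was −0.91 against −0.04. Without overlap in CPM, 3 lay above DMSO and 6 below it with TSA, where 33% and 35.6% of all genes did (68.6% in all), and 2 above and 6 below with GSK-343, where 28.6% and 32.1% did (60.7% in all). The comparisons with DMSO share the same control libraries. The split with TSA changed from 0 higher and 5 lower to 3 higher (Tcf7, Ctnnb1 and Wnt9a) and 2 lower (Lgr6 and Znrf3) with total count scaling, and to 3 higher and 3 lower with limma on log2(TPM + 1). Limma called 1 higher and 2 lower with GSK-343. At a threshold of 0.01, 2 genes fell with TSA. Without TSA replicate 2, 2 fell with TSA, and without DMSO replicate 1, DMSO replicate 2 or TSA replicate 1, 3 fell. Without DMSO replicate 2, 3 passed with GSK-343.

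**Figure D4:**
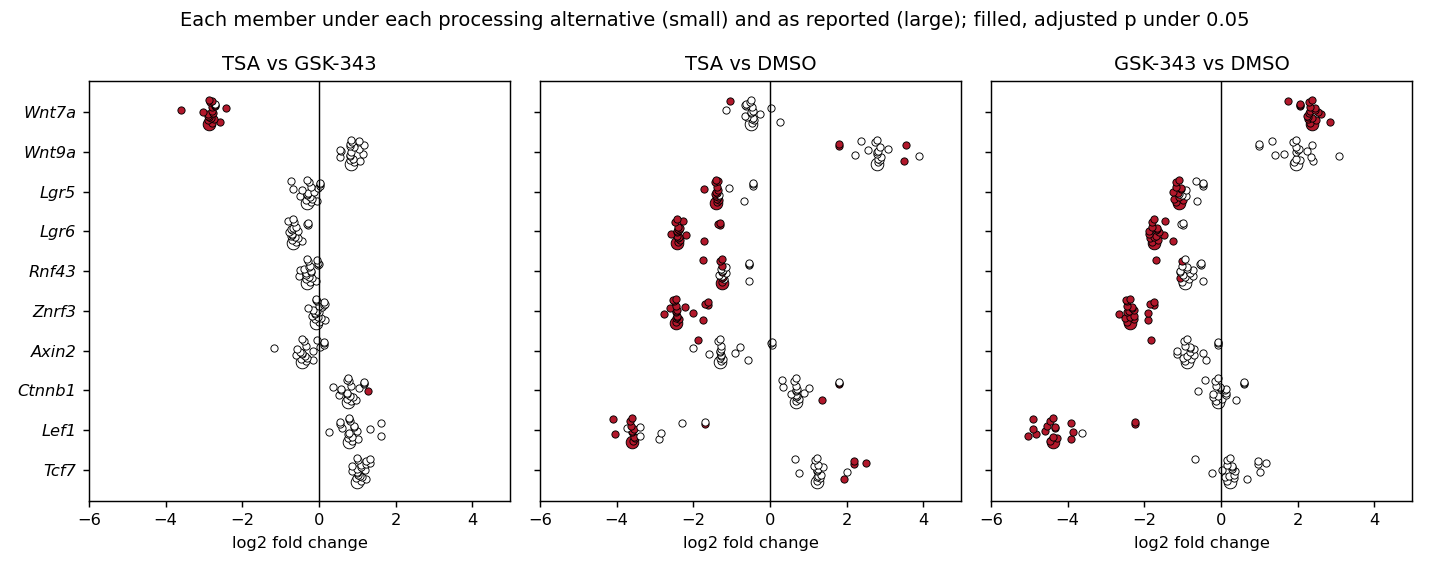
Log2 fold change of the 10 genes as reported (large points) and under each processing alternative (small points), filled where the adjusted p was under 0.05. Wnt7a lies below 0 between the inhibitors and above 0 for GSK-343 against DMSO in every setting, and Lgr6 and Znrf3 lie below 0 in every setting against DMSO, while the points of Lgr5, Rnf43 and Lef1 there lie below 0 but are not filled in all settings.

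The rest of the pathway was read from a list of 103 Wnt pathway genes that includes the 10, of which 76 were tested. Between TSA and GSK-343, 1 rose and 7 fell (median −0.07 against 0.00 over all genes), a share close to the 10.7% of all genes that passed. Beside Wnt7a and Tcf7l1, the genes that fell were the Frizzled receptor Fzd9 (−2.03 ± 0.39, adjusted p = 0.00774), the secreted Wnt antagonists Frzb (−1.76 ± 0.38, adjusted p = 0.0117) and Sfrp1 (−1.11 ± 0.31, adjusted p = 0.0345), the kinase Csnk1e (−1.68 ± 0.34, adjusted p = 0.00899) and the beta-catenin co-activator Pygo2 (−1.33 ± 0.39, adjusted p = 0.0415). Tnfrsf19, a receptor induced by Wnt signalling, rose (1.32 ± 0.35, adjusted p = 0.029). The calls of Sfrp1 and Pygo2 held under 6 and 8 of 20 alternatives and that of Tnfrsf19 under 14, and without TSA replicate 2 all of these but Wnt7a and Tcf7l1 were lost (adjusted p from 0.0721 to 0.301). This count moved to 13 with DESeq2, 4 and 0 with 2 of the limma fits and 4 at a threshold of 0.01. It was 16 without GSK-343 replicate 1, 5 without GSK-343 replicate 2 or 3, and 2 without TSA replicate 2. The split was 4 higher and 5 lower with total count scaling and 3 and 3 with limma on log2(TPM + 1).

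Relative to DMSO, 4 of the 76 rose and 21 fell with TSA (median −0.54 against −0.05 over all genes), where 13.1% of all genes rose and 16.1% fell. With GSK-343, 10 rose and 26 fell (median −0.50 against −0.04), where 18.1% and 21.5% of all genes did. These splits became 11 higher and 14 lower, and 14 and 16, with total count scaling, and 17 and 5, and 16 and 9, with limma on log2(TPM + 1). The limma fits differ from edgeR in unit, scaling, filter and test together. Among the receptors, 6 of 14 tested fell and 1 rose with TSA, and 7 fell and 1 rose with GSK-343, where 29.2% and 39.6% of all genes passed in either direction. The co-receptor Lrp5 fell with both (−2.33 ± 0.52, adjusted p = 0.00513, with TSA and −2.32 ± 0.45, adjusted p = 0.00128, with GSK-343), though not in the limma fits on TPM (adjusted p from 0.205 to 0.266). Fzd1 fell with TSA by 2.41 (SE 0.42, adjusted p = 0.00098) and with GSK-343 by 1.31 (adjusted p = 0.00873). Fzd3 fell with TSA by 1.55 (adjusted p = 0.0167) and with GSK-343 by 2.42 (SE 0.39, adjusted p = 0.000355). The call of Fzd1 with GSK-343 was lost with total count scaling (adjusted p = 0.0796), the replicate block (0.0569), the limma fits (0.334 to 0.347) and without DMSO replicate 2 (0.0542). That of Fzd3 with TSA was lost with total count scaling (adjusted p = 0.14), the limma fits (0.476 to 0.522) and without any 1 of the DMSO or TSA libraries (0.0531 to 0.127). Ryk, a Wnt receptor of the tyrosine kinase type, rose with TSA (1.83 ± 0.44, adjusted p = 0.0071). With TSA, Fzd1 was lost in the limma fits (adjusted p from 0.0811 to 0.122) and Ryk without DMSO replicate 2 (adjusted p = 0.0695).

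In the cytoplasm, 0 of 18 rose and 4 fell with TSA, where 13.1% and 16.1% of all genes did. With GSK-343, 4 rose and 7 fell, where 18.1% and 21.5% of all genes did. In either direction, the TSA share is below the 29.2% over all genes and the GSK-343 share above the 39.6%. Apc, the scaffold of the destruction complex, fell with TSA (−1.85 ± 0.37, adjusted p = 0.00236) and GSK-343 (−2.43 ± 0.33, adjusted p = 8.04e-05). Tnks, which marks Axin for degradation, fell with TSA (−2.19 ± 0.34, adjusted p = 0.000504) and GSK-343 (−2.34 ± 0.30, adjusted p = 5.53e-05). With GC content and length trends removed, the GSK-343 values were −0.63 for Apc (adjusted p = 0.0623) and −0.56 for Tnks (adjusted p = 0.134). The TSA call of Apc was lost in the limma fits (adjusted p from 0.052 to 0.0842). Of the 14 nuclear factors, 1 rose and 5 fell with TSA, and 1 rose and 6 fell with GSK-343, beside 29.2% and 39.6% of all genes. The co-activator Bcl9 fell with both (−2.55 ± 0.52, adjusted p = 0.00269, and −2.05 ± 0.44, adjusted p = 0.00234), though not in the limma fits on TPM (adjusted p from 0.405 to 0.443). Pygo2, which acts together with Bcl9, rose with GSK-343 (2.89 ± 0.42, adjusted p = 0.000163). It was lower with TSA than with GSK-343 by 1.33, which is less than this rise. The fitted level of Pygo2 with TSA therefore stayed above DMSO. Wls, the carrier that brings Wnt proteins to the cell surface, rose with TSA (1.52 ± 0.41, adjusted p = 0.0127) and GSK-343 (1.53 ± 0.38, adjusted p = 0.00575), from 78.8 and 60.0 CPM in DMSO to 221 and 178 CPM and to 141 to 305 CPM. Without DMSO replicate 2 neither Wls call passed (adjusted p = 0.0963 and 0.0639), and without DMSO replicate 1 that with TSA did not (adjusted p = 0.0521). Of the 8 other transcriptional targets tested, 0 rose and 0 fell relative to DMSO with either inhibitor by edgeR, with 1 and 2 at an unadjusted p under 0.05.

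Across the 7 libraries, the profiles most like that of Lgr5 among 9799 genes were those of the long non-coding RNA Sox2ot, which overlaps Sox2 (Pearson r of log2 CPM 0.993), Gm44699 (0.985), Gtf3c6 (0.985), Rai1 (0.984) and Stox2 (0.983). Sox2ot stood at 92.5 and 94.4 CPM in DMSO, 27.5, 40.9 and 11.8 CPM with GSK-343, and 21.6 and 9.09 CPM with TSA. Within the Wnt list, Rnf43 (0.958) was nearest to Lgr5. Of the members, Lgr6 (0.923), Znrf3 (0.912) and Axin2 (0.905) also had values above 0.9. So did list genes outside the members: Bcl9 (0.953), Lrp5 (0.948), Bcl9l (0.931), Fzd1 (0.930), Wnt5a (0.921), Fzd2 (0.918) and Tcf7l2 (0.918). Ctnnb1 (−0.267), Wnt7a (−0.125) and Tcf7 (−0.576) did not share the Lgr5 profile. The points of each correlation share libraries, layout and scaling, and the DMSO libraries lie above all others in the CPM of Lgr5, Sox2ot, Rnf43, Lgr6, Znrf3 and Axin2.

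Some members overlap other genes on the opposite strand, and the sources used here do not state whether counting used strand. Exons of Ulk4 cover 14.6% of the exonic bases of Ctnnb1, those of the antisense gene Gm43352 cover 13.7% of Lef1, and those of the antisense gene Gm11670 cover 3.8% of Axin2. Reads from these stretches cannot be told apart.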

How the data were processed

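RNA of GFP-sorted cochlear supporting cells was sequenced in 7 libraries (2 DMSO, 3 GSK-343, 2 TSA). Per the submitters' processing notes, STAR, RSEM and DESeq2 were used with mm10; versions and the annotation are not given in the sources used here. The expected counts and TPM deposited by the authors are RSEM estimates per gene, per the file headers. Gene lengths and effective lengths were read from the same deposited tables. Of 48709 gene identifiers, 48349 matched a gene symbol once the version suffix was dropped. Gene types and positions came from GENCODE M21 (GRCm38), in which 41341 identifiers had the same version.

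Expected counts were rounded and tested with edgeR 4.0.16 in R 4.3.3: TMM scaling (factors 0.754 to 1.32), filterByExpr, robust quasi-likelihood F tests, 1 model of all 7 libraries, 4 residual degrees of freedom, biological coefficient of variation 0.43, Benjamini-Hochberg adjustment over 14907 genes. The SE was taken as the size of the log2 fold change divided by the root of its F statistic. The pipeline was tested on simulated data. Members and gene lists were chosen with earlier results of these data known. The rule for named genes took all members, up to 4 called genes per role and comparison by smallest adjusted p, and the 5 genes most correlated with Lgr5 (mean log2 CPM of at least 3). Not every call it took is described. Left out against DMSO were Wnt2b, Lrp6, Fzd7, Tnks2 and Tle4 (lower) and Btrc and Frzb (higher) with GSK-343. With TSA they were Fzd2, Gsk3a, Dvl3, Bcl9l and Sfrp1 (lower) and Dkk3 (higher). The levels of Rspo1 and Rspo2, and the values of genes outside this rule, were added after they were seen. Replicates of a group correlated at 0.892 to 0.947 and differed beyond sampling noise.

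Alternatives were other size factors, other filters, only the groups compared, a block on the replicate number, leaving out each library, DESeq2 1.42.0, limma 3.58.1 on log2(TPM + 1) or log2(TPM + 0.1), protein-coding genes alone, removal of GC content and length trends, a threshold of 0.01, and, chosen after seeing the data, edgeR without its robust option. Promoter windows are RefSeq's (GRCm38.p6). Intervals are 95%. Figures were drawn with matplotlib 3.10.9.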

Additional observations from a re-analysis of the deposited data

How the results depend on the processing

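With 2 or 3 libraries a group and low counts for Lef1, Wnt9a and Tcf7, small differences were not detectable. The comparisons with DMSO carry the change in read layout and in the make-up of the counts. Deviations of same-numbered libraries from their group means correlated at −0.0936 to 0.0395. These values cannot decide whether a number marks a shared culture, because in a group of 2 libraries the deviations mirror each other. With the replicate block, 3 members passed for TSA against DMSO (5 as reported), 4 for GSK-343 against DMSO (5 as reported), where Lgr5 was at −0.91 (adjusted p = 0.0745), and 1 between the inhibitors.

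Over the members' fold changes and alternatives, 506 values kept direction and side of the threshold, 39 lost and 18 gained a call, and 31 changed sign; the cause was not tested. Members passing were 0 between the inhibitors with limma without a filter, 3 for GSK-343 against DMSO with each limma fit, and 2 for TSA against DMSO at a threshold of 0.01. With 1 library left out they ranged from 1 to 2 between the inhibitors, from 2 to 5 for TSA and from 3 to 5 for GSK-343 against DMSO. In the Wnt pathway list, 13 genes passed between the inhibitors with DESeq2's Wald test, 4 with limma on log2(TPM + 0.1), 0 with limma without a filter and 4 at a threshold of 0.01; for that threshold 15 passed with TSA and 23 with GSK-343 against DMSO. Leaving out 1 library gave 2 to 16, 16 to 27 and 21 to 37.

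Each sign change concerned a value that had not passed the threshold as reported. Between TSA and GSK-343, limma on log2(TPM + 1) (with and without a filter) and on log2(TPM + 0.1) gave 0.0298 and 0.0301 for Lgr5, 0.12 and 0.13 for Axin2, and 0.14 and 0.15 for Znrf3. Znrf3 was 0.0014 with DESeq2 size factors, 0.17 with total counts, 0.051 with the filter of 50 counts and 0.0017 with the Wald test. With 1 library left out, Axin2 ranged from −1.18 to 0.042 and Znrf3 from −0.29 to 0.083. For TSA against DMSO, Axin2 was 0.043 and 0.038 with limma (pseudocounts 1 and 0.1), Wnt7a 0.26 with total counts and −1.14 to 0.028 with 1 library left out. For GSK-343 against DMSO, Tcf7 was −0.68 with GC and length trends removed and −0.24 to 1.03 with 1 library left out. Ctnnb1 was 0.39 with total counts, 0.028 without a filter, 0.14 with the replicate block, 0.61 with each limma fit and −0.59 to 0.14 with 1 library left out.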
